A study of Mus musculus with 1 sample.

Results

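The transporters described here belong to the solute carrier families SLC2, SLC16 and SLC7, which carry hexoses, monocarboxylates and amino acids across membranes. They were found in the expression table by gene symbol alone, as rows that begin with Slc2a, Slc16a or Slc7a and a number. This rule took 43 of 23282 rows. Of these, 41 were transporters, with 12 in SLC2, 14 in SLC16 and 15 in SLC7. The other 2, Slc2a4rg-ps and Slc7a6os, matched by the start of their symbol only and were kept out of the family values.

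The data were 1 RNA-seq library from mixed glia cultured from the ventral midbrain (VM) of ICR(CD-1) outbred mice, labelled as postnatal day 5. The study examined inhibition of SGK1, a kinase that responds to serum and glucocorticoids, with the compound GSK650394, and this library was its control, given the vehicle (DMSO) according to the study. It carried no genetic alteration named in the labels. The cells had been grown with serum and passaged before use, and the number of pups behind the library was not stated. The labels also mention toxins without saying which cultures received them. Glia given the inhibitor are not analysed here, so the values describe control glia only, and none has a replicate or a test.

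Glucose enters glia by facilitated diffusion through SLC2 proteins (the GLUT transporters) and can leave as lactate through proton-coupled SLC16 proteins (the MCT transporters), the route along which astrocytes are thought to supply neurons. SLC7 holds cationic amino acid carriers that work alone and light chains that reach the cell surface only when bound to a heavy chain, Slc3a2 or Slc3a1. In brain these light chains exchange leucine, glutamine and cystine, and cystine uptake feeds glutathione synthesis.

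Values were normalised read counts (RC) as given by the authors, whole numbers that summed to 27569507. A gene at an RC of 10 or more is called detected. To compare genes with each other, each RC was divided by the gene's exon length in kilobases and by the sum of all RC in units of 1000000, and this quantity is called the level per kb below. The median level per kb of detected genes was 3.72. Because no replicate exists, genes were given an order only where they differed by at least 2-fold both with the length of all exons joined and with the longest transcript.

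The label of the culture was checked against cell type markers. Of 12 astrocyte markers 11 were detected (Gfap at an RC of 17222, Aqp4 at 5049, Gjb6 at 4). Detected too were 12 of 12 microglia, 8 of 8 mesenchymal and 10 of 10 oligodendrocyte lineage markers. Of neuronal markers 7 of 9 were detected and of endothelial markers 6 of 8, near the share of all rows, 67.2%. Median RC was 14866 for microglia, 8184.5 for mesenchymal, 2966.5 for astrocyte, 1023.0 for oligodendrocyte lineage, 86 for neuronal and 39.5 for endothelial markers. Because these medians rest on chosen genes, they are not proportions of cells. The study describes its VM glial cultures as mostly GFAP-positive astrocytes with a smaller share of microglia. The library is thus a mixture, and a transporter's level cannot be assigned to a cell type: few cells with much RNA and many cells with little give the same value.

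Of the 41 transporters, 32 (78%) were detected, against 67.2% of all 23282 rows and 67.9% of 321 other Slc rows. The count was 10 of 12 in SLC2, 10 of 14 in SLC16 and 12 of 15 in SLC7. The 3 families together held 870.4 of each 1000000 RC, with 416.0 in SLC7, 249.2 in SLC16 and 205.2 in SLC2. The median RC was 442.0 for SLC7, 88 for SLC16 and 72.5 for SLC2, beside 117.0 for other Slc rows and 119.0 for all rows. At an RC of 100 or more were 11 of 15 members of SLC7, 6 of 14 of SLC16 and 5 of 12 of SLC2, beside 51.6% of all rows and 51.4% of other Slc rows. Listed at 0 were Slc2a7, Slc16a5, Slc16a8 and Slc7a12.

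**Figure D1:**
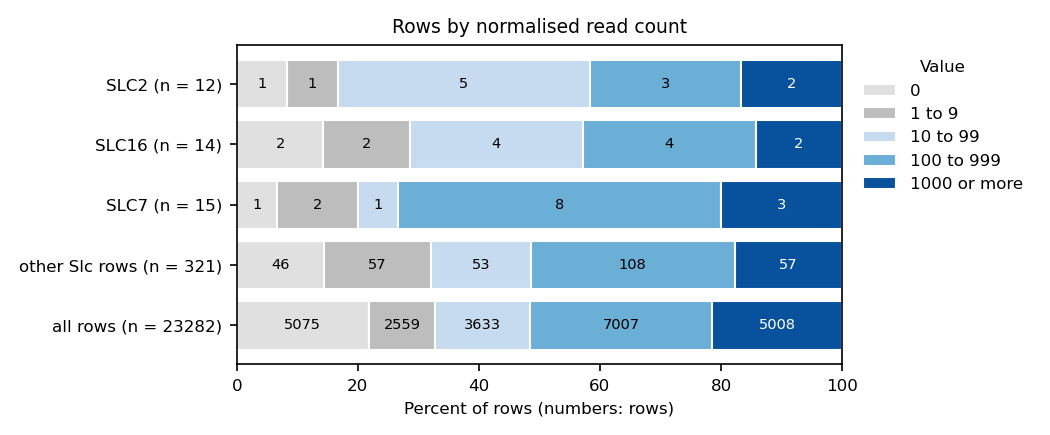
Share of rows (percent, horizontal axis) in 5 ranges of RC for the 3 families, other Slc rows and all rows of the control library, with the number of rows printed in each segment. In SLC7, 11 of 15 members stood at 100 or more, compared with 5 of 12 in SLC2 and 6 of 14 in SLC16.

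The highest member of each family stood above 88% of detected genes in level per kb, with all exons joined as length. Slc7a8, a neutral amino acid exchanger (LAT2), had an RC of 4343 and a level of 31.5 per kb. Slc2a1, the widespread glucose transporter GLUT1, had an RC of 2986 and a level of 30.9 per kb. Slc16a1, the lactate and pyruvate transporter MCT1, had an RC of 3501 and a level of 28.7 per kb. These 3 family leaders differed by less than 2-fold from each other and are not ordered. Slc2a1 is also not ordered against Slc2a6, the next member of SLC2, at 1.84-fold above it. With the longest transcript, Slc16a1 stood above 84.8% of detected genes, Slc2a1 above 86.7% and Slc7a8 above 88.7%. With coding length these shares were 86.9%, 84.8% and 88.5%. Slc16a1 held 54.5% of the summed level of its family, Slc2a1 53.9% and Slc7a8 42.2%.

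**Figure D2:**
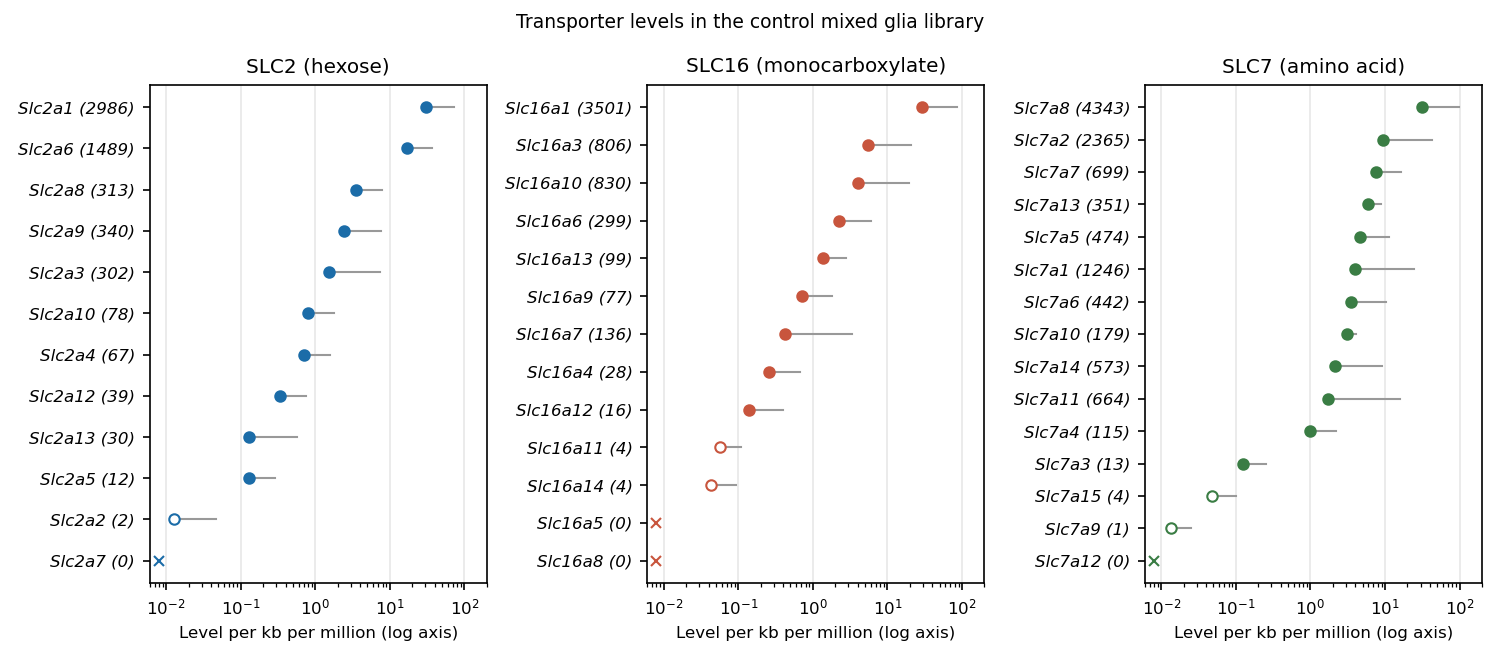
Level per kb (log axis) of transporters by family, with the RC in parentheses. Filled points were detected, open points had an RC below 10 and crosses were listed at 0, drawn at the left edge. Grey lines reach to the level computed with the coding sequence as length, and Slc2a1, Slc16a1 and Slc7a8 stay at the top of their family at either end of the line.

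Promoter sequences are shown for the 3 leaders because these genes hold the highest share of their family's level, and for the cystine transporter Slc7a11 because its window holds 2 matches to an element found in few windows. The windows are 300 bases around the annotated start, from RefSeq on build GRCm38.p6, written 5′ to 3′ on the strand of the gene. For Slc2a1 (chr4:119108495-119108794, plus strand) and Slc16a1 (chr3:104638414-104638713, plus strand), capitals mark the GC box GGGCGG, the E-box CACGTG and the hypoxia element core ACGTG. For Slc7a8 (chr14:54781837-54782136, minus strand) they mark the GC box, and for Slc7a11 (chr3:50443564-50443863, minus strand) the amino acid response element TGATGNAAN. Both strands were searched, so a capital run can be the reverse complement of the motif.
Slc2a1: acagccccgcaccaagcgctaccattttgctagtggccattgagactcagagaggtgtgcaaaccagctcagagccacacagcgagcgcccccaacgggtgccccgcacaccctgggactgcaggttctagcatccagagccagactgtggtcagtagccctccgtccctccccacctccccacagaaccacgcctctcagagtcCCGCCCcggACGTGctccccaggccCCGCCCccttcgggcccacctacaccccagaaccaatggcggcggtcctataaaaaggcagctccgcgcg
Slc16a1: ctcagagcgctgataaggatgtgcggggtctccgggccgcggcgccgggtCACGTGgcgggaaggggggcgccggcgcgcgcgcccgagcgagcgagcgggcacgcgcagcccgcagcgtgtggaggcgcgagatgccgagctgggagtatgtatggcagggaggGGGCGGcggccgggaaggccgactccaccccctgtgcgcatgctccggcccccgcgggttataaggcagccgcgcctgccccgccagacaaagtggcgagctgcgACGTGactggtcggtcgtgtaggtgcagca
Slc7a8: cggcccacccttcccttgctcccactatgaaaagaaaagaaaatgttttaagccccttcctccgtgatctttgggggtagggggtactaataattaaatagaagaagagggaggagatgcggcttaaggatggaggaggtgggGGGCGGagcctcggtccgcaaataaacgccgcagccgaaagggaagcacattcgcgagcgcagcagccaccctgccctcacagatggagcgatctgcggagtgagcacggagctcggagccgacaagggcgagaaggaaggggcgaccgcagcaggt
Slc7a11: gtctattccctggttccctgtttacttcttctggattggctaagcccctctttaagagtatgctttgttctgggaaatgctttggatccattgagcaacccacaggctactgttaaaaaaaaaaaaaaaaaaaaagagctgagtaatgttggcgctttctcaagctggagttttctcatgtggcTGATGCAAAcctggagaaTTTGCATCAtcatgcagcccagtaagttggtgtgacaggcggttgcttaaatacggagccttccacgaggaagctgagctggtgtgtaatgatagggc

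A GC box stood in each of the leaders' windows and in 35.7% of all 32851 RefSeq windows. It was also found for 16 of the 28 transporters with a window, counted by gene. Among these were Slc2a5 at an RC of 12 and Slc7a15 at 4, so the box is not particular to the leaders. The core ACGTG was found in 19.6% of all windows and for 9 of the 28 transporters. It stood once in the Slc2a1 window at position 215 and in the Slc16a1 window at position 271. The Slc16a1 window also held the E-box at position 51, an element in 7.15% of all windows that itself contains the core on both strands. The E-box was found for 3 of the 28 transporters, with Slc16a12 at an RC of 16 among them. In the Slc7a11 window the 2 amino acid response elements lay at positions 185 and 203, facing opposite ways, and this element occurred in 3.95% of all windows. Among 28 transporters with a window, Slc7a7 was the other with a match to it, and a window of Slc7a7 also held 2. The Slc7a11 window held no match to the antioxidant element core TGACNNNGC, found in 12.4% of all windows. These matches describe letters in the windows and say nothing about binding in these cells.

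Among hexose transporters, the class 1 carriers (Slc2a1 to Slc2a4) summed to a level of 33.1 per kb, the class 3 carriers, which include intracellular ones, to 21.6, and the fructose and urate class 2 to 2.55. Slc2a1 (chr4:119108711-119137983) stood above 89.2% of detected genes. Slc2a3, the high-affinity glucose transporter GLUT3 known from neurons, had an RC of 302 and a level of 1.51 per kb, which placed Slc2a1 20.4-fold above it. That ratio was 9.91 with the coding sequence as length, since the annotated exons of Slc2a3 reach far beyond its coding part. Slc2a4, the insulin-responsive GLUT4 of muscle and fat, had an RC of 67. Slc2a2, the GLUT2 of liver and beta cells, had an RC of 2.

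The second SLC2 transporter was Slc2a6 (chr2:27021363-27027998), a carrier known from lysosomes of macrophages, with an RC of 1489 and a level of 16.8 per kb. Slc2a1 was 1.84-fold above it, under the 2-fold limit. Slc2a6 was in turn 4.75-fold above Slc2a8, an intracellular hexose carrier at an RC of 313. The urate transporter Slc2a9 stood at 340, and it is not ordered against either Slc2a8 or Slc2a3. Lower still were Slc2a10 at 78, Slc2a12 at 39 and Slc2a13, a proton and myo-inositol symporter, at 30. About 9.61% of the exon bases of Slc2a12 overlap Tbpl1 on the opposite strand.

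Slc2a5, the fructose transporter GLUT5 that serves as a marker of microglia in brain, had an RC of 12 and a level of 0.128 per kb, above 3.05% of detected genes. The lowest of the 12 microglia markers in the same library, Tmem119, had an RC of 984, so this microglial transporter sat far below them. Slc2a7, its neighbour on chromosome 4, was listed at 0. Of 7 sodium-coupled hexose carriers, 1 was detected (Slc5a2 at 166), beside 67.9% of other Slc rows. About 20.6% of the exon bases of Slc5a2 overlap BC017158 on the opposite strand.

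The genes that act on hexose transporters were detected in 9 of 9 cases, beside 67.2% of all rows. Txnip, which promotes the internalisation of GLUT1, had an RC of 4235 and a level of 49.2 per kb, and its relative Arrdc4 an RC of 1230. Hif1a, the hypoxia factor subunit, stood at 4241 and Myc at 1025. Aspscr1 and Tbc1d4, which retain GLUT4 inside cells, stood at 2285 and 372, both above Slc2a4 itself. Downstream, the hexokinases Hk3, Hk1 and Hk2 had RCs of 3015, 2687 and 1509. Khk, the fructose kinase, stood at 289.

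Among monocarboxylate transporters, the 4 proton-coupled lactate carriers (Slc16a1, Slc16a3, Slc16a7 and Slc16a8) made up 65.8% of the SLC16 level. Slc16a1 (chr3:104638668-104658462) stood above 88.5% of detected genes and 5.22-fold above Slc16a3, the lactate exporter MCT4 of glycolytic cells, at an RC of 806 and a level of 5.50 per kb. Slc16a7, the high-affinity MCT2 known from neurons, had an RC of 136 and a level of 0.417 per kb. Slc16a1 was thus 68.9-fold above Slc16a7 per union exon length and 25.3-fold above it per coding length. Slc16a8, the MCT3 of retinal pigment epithelium, was listed at 0. The lactate carriers therefore ran in the order Slc16a1, Slc16a3, Slc16a7 under each length used.

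The accessory glycoprotein basigin, Bsg, brings some of these carriers to the cell surface. It had an RC of 26250 and a level of 524.9 per kb, above 99.4% of detected genes by RC. That was 15.2 times the summed level of the 4 lactate carriers, or 7.42 times with coding length. Embigin (Emb), the alternative partner, stood at 654, and neuroplastin (Nptn) at 5656. The lactate dehydrogenases stood at 13141 for Ldha and 5577 for Ldhb, with levels of 144.0 and 128.8 per kb, which are not ordered. The mitochondrial pyruvate carrier subunits Mpc1 and Mpc2 had RCs of 2366 and 2867, whereas the sodium-coupled monocarboxylate carriers Slc5a8 and Slc5a12 had 4 and 1.

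Slc16a10, which carries aromatic amino acids and thyroid hormone, had an RC of 830 and a level of 4.09 per kb, above 52.3% of detected genes. By RC it stood above 63.2% and with coding length above 60.5%. Of the thyroid hormone genes, the receptors Thra and Thrb stood at 2359 and 576, and the activating deiodinase Dio2, known from astrocytes, at 271. The transporter Slco1c1 stood at 16, and the inactivating deiodinase Dio3 was listed at 0.

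Lower SLC16 members followed. Slc16a6 had an RC of 299, but 21.5% of its exon bases overlap Amz2 (RC 1018) on the opposite strand, and where strand was not counted the reads of such genes cannot be told apart. Slc16a13 stood at 99, Slc16a9, a carnitine carrier, at 77, Slc16a4 at 28 and the creatine carrier Slc16a12 at 16. About 12.7% of the exon bases of Slc16a9 overlap Gm7097 on the opposite strand. Slc16a11 and Slc16a14 stood at 4 each.

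Among amino acid transporters, the 6 light chains that bind Slc3a2 were all detected, beside 67.9% of other Slc rows. They summed to a level of 52.1 per kb, 69.8% of the SLC7 level. Slc7a8 (chr14:54722209-54781946) was the highest of them, above 89.5% of detected genes. Slc7a5, the leucine exchanger LAT1, had an RC of 474 and a level of 4.64 per kb, so Slc7a8 was 6.79-fold above it. The ratio ran from 6.79 to 8.83 over the 3 lengths. Slc7a7, which with Slc3a2 exports arginine and is known from macrophages, had an RC of 699, and Slc7a6, its relative, 442. The former was 2.18-fold higher per union exon length and 1.60-fold higher per coding length. About 7% of the exon bases of Slc7a7 overlap Oxa1l on the opposite strand.

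The heavy chain Slc3a2, also known as CD98, had an RC of 7894 and a level of 81.1 per kb. This was 1.56 times the summed level of its 6 light chains, or 1.08 times with coding length. The other heavy chain, Slc3a1, had an RC of 78, which left Slc3a2 65.1-fold above it per union exon length and 122.7-fold per coding length. About 26.5% of the exon bases of Slc3a1 overlap Prepl on the opposite strand. Of the light chains that bind Slc3a1, Slc7a9, the cystine carrier of the kidney, had an RC of 1, while Slc7a13, an aspartate and glutamate carrier also known from kidney, had an RC of 351 and a level of 5.95 per kb. Its level was thus 4th in the family with union exon length, within 2-fold of Slc7a7 and Slc7a5, and above 60.7% of detected genes. With coding length the level of Slc7a13 was 8.88 per kb, above 42.8% of detected genes. Slc7a1 at 24.2, Slc7a11 at 16, Slc7a5 at 11.2, Slc7a6 at 10.4 and Slc7a14 at 8.99 were then above it too. By RC, Slc7a13 stood above 44% of detected genes, so its place depends on the length used. The single annotated Slc7a13 transcript overlaps no exon of another gene and shares no stretch of 100 bases at 95% identity with other annotated transcripts. Sequence outside annotated transcripts was not searched, and the source of the reads was not tested.

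The cystine and glutamate exchanger Slc7a11 (xCT, chr3:49892526-50443614) had an RC of 664. Its level was 1.73 per kb with 13922 exon bases but 16 with its 1506 coding bases, so its place in the family depends on the length used. Which exons these cells use was not measured. Slc7a10, which carries alanine, serine and cysteine and is known from astrocytes, had an RC of 179 and a level of 3.08 per kb. Slc7a11 was at 0.562 times Slc7a10 per union exon length and at 3.92 times per coding length, and the carriers are not ordered. A stretch of 373 bases of the Slc7a11 transcript matches the reverse strand of the alpha-tubulin transcripts, with 96.2% identity to Tuba1b at an RC of 14887. About 17.9% of the exon bases of Slc7a10 overlap Lrp3 on the opposite strand. What part either overlap had in the values was not tested.

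The genes around cystine use were detected in 9 of 9 cases, beside 67.2% of all rows. Gclc and Gclm, the subunits that set the rate of glutathione synthesis, had RCs of 1600 and 679, Gss 621 and Gsr, the reductase, 1547. Atf4, a factor of the amino acid stress response known to bind elements of the kind shown above, stood at 7346 with a level of 113.0 per kb, and Nfe2l2 at 3790, while the stress targets Chac1 and Trib3 were at 160 and 73.

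**Figure D3:**
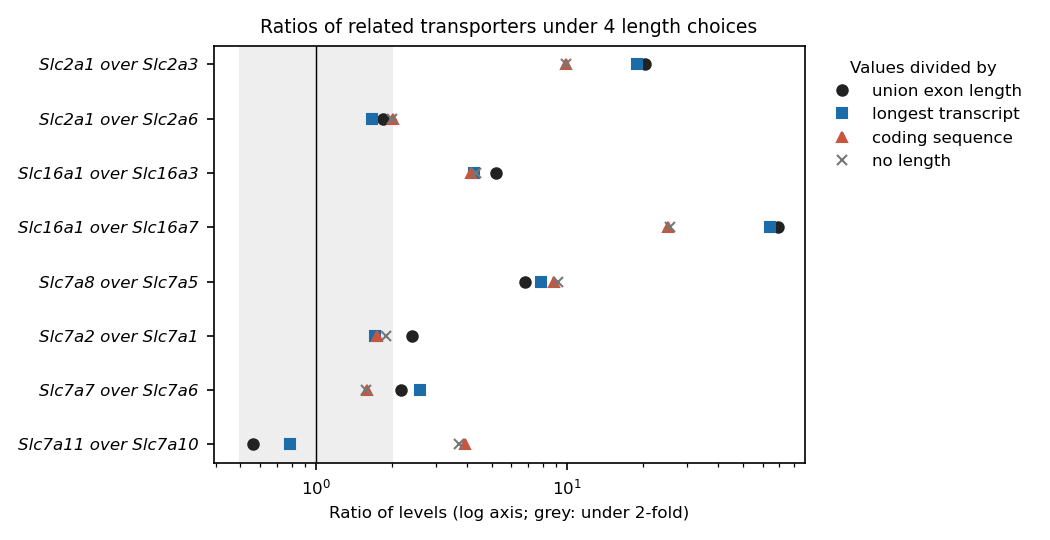
Ratio of levels (log axis) for 8 pairs of related transporters with values divided by union exon length, longest transcript or coding sequence, or undivided. The grey band covers ratios under 2-fold. Slc2a1 over Slc2a3, Slc16a1 over Slc16a3 and over Slc16a7, and Slc7a8 over Slc7a5 stay outside it, and Slc7a11 over Slc7a10 crosses 1.

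The cationic amino acid group (Slc7a1 to Slc7a4 and Slc7a14) summed to a level of 16.6 per kb, 22.2% of the family. Slc7a2, the arginine carrier induced in activated macrophages and astrocytes, was second in SLC7 by RC at 2365, with a level of 9.39 per kb, and Slc7a8 was 3.35-fold above it. Slc7a1, the widespread arginine carrier, had an RC of 1246 and a level of 3.92 per kb. Slc7a2 was 2.40-fold above Slc7a1 per union exon length and 1.72-fold per longest transcript, so the carriers are not ordered. Slc7a14, a lysosomal member, had an RC of 573, Slc7a4 115 and Slc7a3, the neuronal form, 13. About 13.3% of the exon bases of Slc7a4 overlap P2rx6 (RC 131) on the opposite strand. Transcripts of Slc7a2, Slc7a14 and Slc2a3 contain repeats, with stretches at 95% identity or more in many other transcripts.

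Genes that use arginine included Arg1 at an RC of 3771, Odc1 at 4675, Ass1 at 3207 and Asl at 1222, while Arg2 stood at 190 and Nos2 at 7. The last members of the family, Slc7a15 and Slc7a12, stood at 4 and 0. In the order of SLC7, 2 of 11 neighbouring pairs of detected members were separated by 2-fold, Slc7a8 from Slc7a2 at the top and Slc7a4 from Slc7a3 at the bottom. This held for 3 of 9 pairs in SLC2 and 1 of 9 in SLC16.

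Other amino acid carriers, listed beside SLC7 for scale, were detected in 11 of 13 cases, beside 67.9% of other Slc rows. Slc6a6, the taurine transporter, had an RC of 12610 and a level of 54.1 per kb, and Slc43a2, a leucine facilitator, 9212 and 33.3 per kb. Slc6a6 was 1.72-fold above Slc7a8 per union exon length and 2.48-fold per coding length. For Slc43a2 these ratios were 1.06 and 1.98, and neither carrier is ordered against Slc7a8. The glutamine carriers Slc38a1, Slc38a2 and Slc38a3 stood at 1970, 1443 and 849. Slc1a5 stood at 213, and Slc38a5 and Slc43a1 at 2 and 5. The branched-chain and leucine-sensing genes were detected in 6 of 6 cases, from Bcat1 at 291 to Mtor at 1608, beside 67.2% of all rows.

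**Figure D4:**
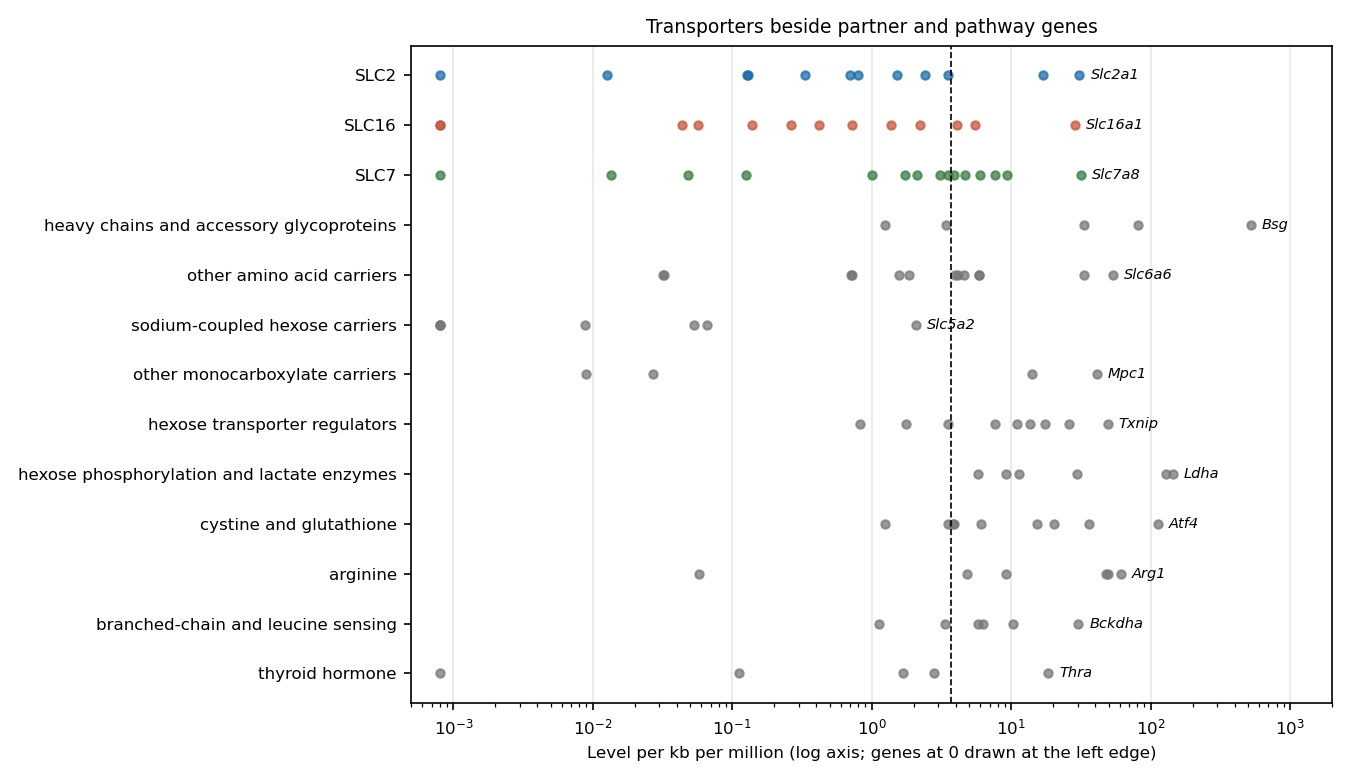
Level per kb (log axis) of the 3 transporter families (coloured) beside partner and pathway genes (grey). Each point is 1 gene, the highest gene of each row is named, genes at 0 are drawn at the left edge and the dashed line is the median of detected genes, 3.72. Bsg at 524.9 and Slc3a2 at 81.1 lie to the right of each transporter in the families.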

How the data were processed

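RNA-seq was carried out on 1 control library of VM-derived mixed glia. According to the study's methods, low-quality reads were trimmed, mapped to GRCm38/mm10 with STAR and counted on exons of NCBI RefSeq genes with HTSeq-count. The submitters' processing notes name TopHat and edgeR instead, with no role. The values deposited by the authors are whole-number normalised read counts, treated here as a score because the normalisation, strand setting and handling of multi-mapped reads are not given in the sources used here. Sequencing depth is therefore unknown, and no interval or detection limit is given.

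Exon lengths, coordinates and exon overlaps came from GENCODE M21 (GRCm38), which is not the annotation the authors counted on. It matched 22926 rows (98.5%) and each of the 43 members by symbol or a RefSeq synonym. No member symbol occurred in more than 1 row. Levels were values per kilobase of union exon length per 1000000 of the summed values. Transcripts were compared with BLAST 2.17.0 at 95% identity over 100 bases or more. Promoter windows were found for 28 of 41 transporters (68.3%), too few for a comparison over the families. The arithmetic of levels and percentiles was checked on made-up values with known answers, which says nothing about the levels reported. Python 3.11.15, numpy 2.4.6, pandas 2.3.3 and matplotlib 3.10.9 were used.

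The members, partner genes, pathway lists and markers were chosen with earlier results of these data known. Transporters were named whatever their value, and other genes come from fixed lists of partners and pathways. Some genes are not reported here and are left out of the plots of levels and ratios, while counts and sums include them. The motifs, the pairs compared by role and the genes overlapping a member were chosen after values were seen, as was division by coding length. Other alternatives were the detection minimum, the denominator, the longest transcript and no length.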

Additional observations from a re-analysis of the deposited data

How the results depend on the processing

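A value was taken as moved when it changed by more than 1.5 times, since no replicate gives a spread. With a minimum RC of 100, 5 SLC2 and 6 SLC16 members remained at or over it. With members at 10 or more only, the median RC was 190.0 for SLC2, 217.5 for SLC16 and 326.5 for the 3 families together. With no division by length, Slc7a8 was 1.84 times the next SLC7 member. Slc2a1, Slc16a1 and Slc7a8 were highest in their families with each of the 4 length choices, though Slc2a1 is not ordered against Slc2a6. Among 48 ratios of 2 genes, 60 of 144 checks moved, none of them turning a ratio of 2-fold or more the other way. Ratios under 2-fold were not counted as turned, though some did turn. Slc7a5 over Slc7a1 went from 1.18 per union exon length to 0.462 per coding length, and Slc7a10 over Slc7a14 from 1.45 to 0.454. Percentiles among detected genes were instead taken as moved at a change of 10 percentage points or more, and 17 of 96 such checks moved. Rows that share a symbol left the medians as they were, because none is a member. No paired analysis was possible because there was 1 library. The lack of a replicate and the unknown normalisation limit each value to this library.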

Other observations

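Some transporter genes lie within 1 Mb of another on the same chromosome, in 6 pairs. Slc16a13 and Slc16a11 are 0.372 kb apart on chromosome 11 on opposite strands, with RCs of 99 and 4, a 24.3-fold difference in level per kb. Slc7a10 and Slc7a9 are 247.7 kb apart on chromosome 7, with RCs of 179 and 1. Slc7a8 and Slc7a7 are 304.4 kb apart on chromosome 14, with RCs of 4343 and 699. Slc2a5 and Slc2a7 are 4.80 kb apart on chromosome 4, with RCs of 12 and 0. Slc2a4, at an RC of 67, is 268.6 kb from Slc16a13 and 264.6 kb from Slc16a11. The level of Slc16a13 was 1.98 times that of Slc2a4, under the 2-fold limit. The pairs were looked at after their values were seen, and each rests on 1 library.

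The symbols that matched the families by their start only were Slc7a6os, a gene beside Slc7a6 that encodes no carrier, at an RC of 667, and the pseudogene Slc2a4rg-ps at 39. The RC of Slc7a13, a gene known from kidney, and the low RC of Slc2a5 in a library with high microglia markers are values that a second library would be needed to check.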
